A study of Oryctolagus cuniculus with 36 samples.

Results

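The livers labelled FA were compared with the livers labelled WT in a rabbit RNA-seq series on hereditary tyrosinemia type I. The comparison holds 24 of the 36 libraries of the series, namely all 12 with FA and all 12 with WT in the title. Titles place them in 3 numbered sets per group with 4 libraries per set. The labels do not spell out FA or give its genotype, and they give no age, sex, treatment agent or time of collection for either group. Every library, WT included, carries the same description as a rabbit model of the disease, so that the groups rest on the titles alone. The RNA of all 24 came from whole livers that had been treated with trypsin. The 4 libraries of a set are not said to be separate animals, nor are the 3 sets. Counts were therefore summed by set, and n = 3 in each group throughout. What p-values weigh here is the spread from set to set, and part or all of that could be technical.

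Hereditary tyrosinemia type I follows from loss of the enzyme fumarylacetoacetate hydrolase (FAH), which completes the breakdown of phenylalanine and tyrosine. Without it, fumarylacetoacetate and its product succinylacetone build up in hepatocytes. These reactive compounds damage proteins and DNA, and the untreated disease is known for liver failure, raised serum alpha-fetoprotein and liver cancer. The enzyme HPD, which acts upstream in the pathway, is the target of the drug nitisinone.

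Libraries held 14.2 to 18.7 M counts in WT and 15.1 to 22.5 M in FA, and sets held 61.0 to 78.6 M. Levels are given as CPM, counts per M counts after TMM scaling, in the order of sets 1, 2 and 3. Differences are fitted log2 values, FA minus WT. A gene counts as called, and only then as risen or fallen, when its p in edgeR's quasi-likelihood test was under 0.05 after Benjamini-Hochberg adjustment over all genes, whatever the fold. The liver identity of both groups was plain in the hepatocyte markers. The summed level of 15 defining hepatocyte genes, albumin among them, ran from 228663 CPM in WT set 1 to 301851 CPM in FA set 1. The first principal component held 39.2% of the variance and placed the FA sets at 30.4 to 51.8 and the WT sets at -45.3 to -37.9. FA set 2 stood apart on the second component, with 20.2% of the variance, at 62.6, and results that rest on it are given with its own values.

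FAH separated the groups in every set. Its level was 227, 260 and 209 CPM in the WT sets and 24.7, 23.8 and 18.9 CPM in the FA sets. The highest FA set lay far below the lowest WT set, and the FA mean was 9.68% of the WT mean (22.5 ± 3.15 against 232 ± 25.9 CPM, SD, n = 3 each). The fitted log2 difference was -3.37, with a standard error (SE) of 0.20 and an adjusted p of 0.00132. Each FA library held 256 to 550 FAH counts, so that FAH RNA was low and not absent. The 10 tested genes nearest to FAH in the RefSeq order had adjusted p values from 0.0880 (CTXND1) to 0.928 (TMED3).

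FAH was the only call among the 7 tyrosine pathway genes reported here, where 1.63% of all 14379 genes tested were called. HPD was the only other member with an unadjusted p under 0.05, a mark that 19% of all genes passed (9.56% higher and 9.42% lower). HPD was at 2401, 2263 and 2080 CPM in WT and at 1473, 1132 and 1013 CPM in FA. Its sets did not overlap and the fitted difference was -0.90, but the adjusted p was 0.102. HGD and GSTZ1, the enzymes just before FAH, differed by 0.02 and -0.01, and TAT, which starts tyrosine breakdown, by -0.09. DESeq2 called 2 of the 7 pathway genes lower. It called more genes than edgeR in general, 1133 over all genes, with 571 higher and 562 lower. Its counts for the lists below stand beside that larger total.

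Over all genes, 235 of 14379 tested were called, or 1.63%, with 139 higher in FA (0.967%) and 96 lower (0.668%). Of the 235, 187 carry a symbol, 119 higher and 68 lower. The change was at least 2-fold for 126 of those that rose and 91 of those that fell, and the median log2 difference over all genes was 0.00. The sets of the groups did not overlap for all 235 called genes and for 25.1% of all genes tested, in nearly equal numbers above (1810) and below (1806). The spread between sets was wide, with a biological coefficient of variation of 31.6%, and the number of calls moved with the sets used. It was 76 without WT set 1, 129 without WT set 2, 123 without WT set 3, 96 without FA set 1, 341 without FA set 2 and 79 without FA set 3. The gene lists used below were chosen with earlier results of these data known. A list's counts beside the share of all genes are therefore a description and not a test. The plot of p against log2 difference shows the calls on both sides.

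**Figure D1:**
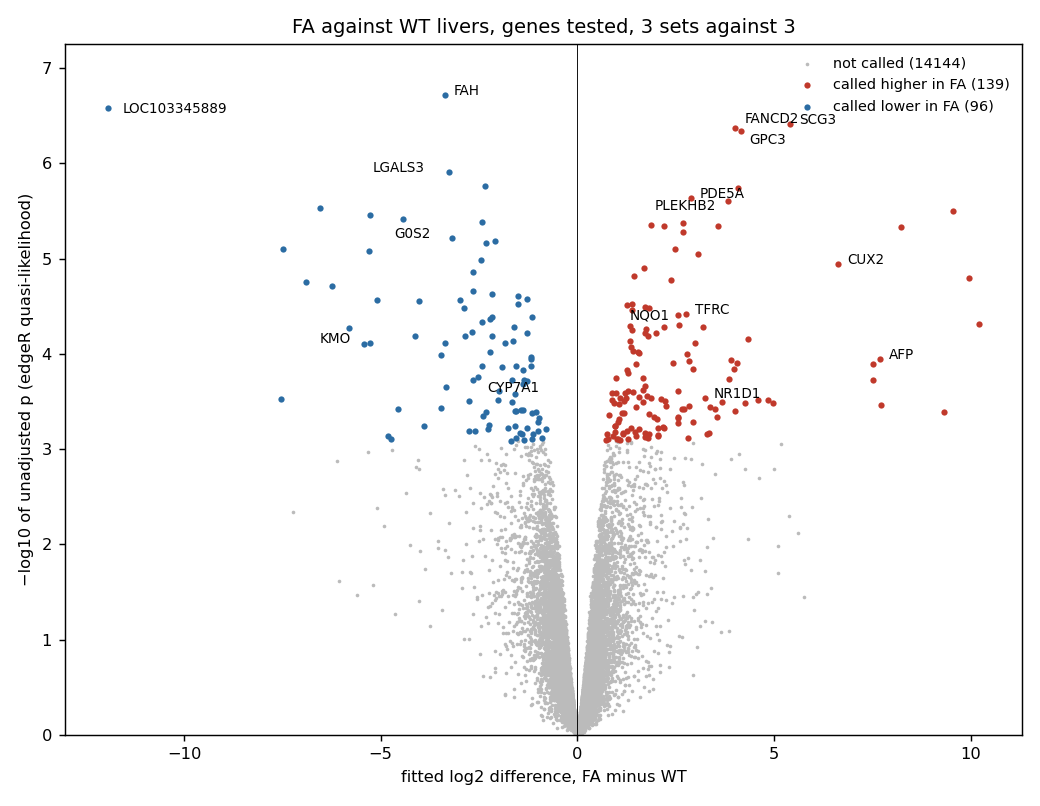
Fitted log2 difference (x axis, FA minus WT) and -log10 of the unadjusted p (y axis) of the 14379 genes tested, 3 sets against 3, with 139 called higher in red, 96 called lower in blue and the rest in grey. FAH and LOC103345889 have the smallest p values among the falls, and SCG3, FANCD2 and GPC3 among the rises.

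Among called genes that carry a symbol and averaged 10 CPM or more in FA or WT, the largest log2 rise was in alpha-fetoprotein, and a further fetal liver gene rose as well. AFP, the albumin relative that dominates fetal plasma, went from 0.95, 3.93 and 2.38 CPM in WT to 934, 66.3 and 499 CPM in FA. All FA sets lay above all WT sets, yet FA set 2 was much lower than the other two. The log2 difference was 7.69 (SE 1.10, adjusted p = 0.0178). GPC3, glypican 3, a cell surface proteoglycan of fetal liver and liver cancer, rose from 1.90, 3.09 and 2.13 CPM to 51.6, 31.5 and 43.8 CPM, a log2 difference of 4.15 (SE 0.28, adjusted p = 0.00132). The FA sets were close to each other for GPC3. In the list of 18 fetal liver genes, 11 were tested, and AFP and GPC3 were its only calls, both higher. PEG3, an imprinted gene, was at 10.5, 6.22 and 3.92 CPM in WT and 73.3, 13.4 and 47.1 CPM in FA and was not called (adjusted p = 0.0746). The other 8 had fitted differences between -0.90 (IGF2BP2) and 0.69 (HKDC1), and the list's median was 0.00. AFP was called in 3 of the 6 fits that leave out 1 set and lost the call without WT set 1, WT set 3 or FA set 3 (adjusted p up to 0.0692). GPC3 was called in all 6.

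CUX2, a homeobox transcription factor known in liver for its sex-dependent expression, rose from 2.73, 0.819 and 0.513 CPM to 157, 90 and 158 CPM (log2 6.64, SE 0.69, adjusted p = 0.00548). Since the labels give no sex, a difference in sex between the groups cannot be told apart from one due to the group. SCG3, secretogranin III, a protein of neuroendocrine secretory granules, rose from 0.46, 0.959 and 1.01 CPM to 44, 27.3 and 32.7 CPM (log2 5.42, SE 0.36, adjusted p = 0.00132). FANCD2, the central protein of the Fanconi pathway of DNA crosslink repair, rose from 0.751, 1.07 and 0.933 CPM to 10.8, 15.6 and 18.2 CPM (log2 4.01, SE 0.27, adjusted p = 0.00132). Each of the 3 was separated from WT in every FA set and called in all 6 leave-outs. FANCD2 was the only call among 20 tested Fanconi and crosslink repair genes, whose median was -0.05. Its partner in the pathway, FANCI, was at a mean of 2.59 CPM in WT and 1.80 CPM in FA and was not called.

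The other rises of this size covered transport, signalling and metabolism. TFRC, the transferrin receptor that brings iron into cells, rose from 23.5, 18.2 and 27 CPM to 126, 233 and 105 CPM, a log2 difference of 2.76. It was the only call among 21 tested iron genes, whose median was 0.09. The ferritin chains FTH1 and FTL, which store iron, differed by 0.45 and 0.48, and the iron hormone HAMP by -0.75, none of them called. PKHD1, which encodes fibrocystin of cilia in bile duct cells, rose from 6.47, 9.99 and 8.97 CPM to 42, 66.1 and 56.2 CPM. PDE5A, a phosphodiesterase that breaks down cyclic GMP, rose by 2.88 and TRPM6, a magnesium channel, by 2.68 on the log2 scale. CYP26A1, which breaks down retinoic acid, rose by 3.29, with FA set 3 (81.4 CPM) above the other FA sets (18.4 and 23.9 CPM). TFRC lost its call without WT set 1 (adjusted p = 0.0502), and CYP26A1 was called in 1 leave-out of 6 (adjusted p up to 0.131). PKHD1, PDE5A and TRPM6 were called in all 6.

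**Figure D2:**
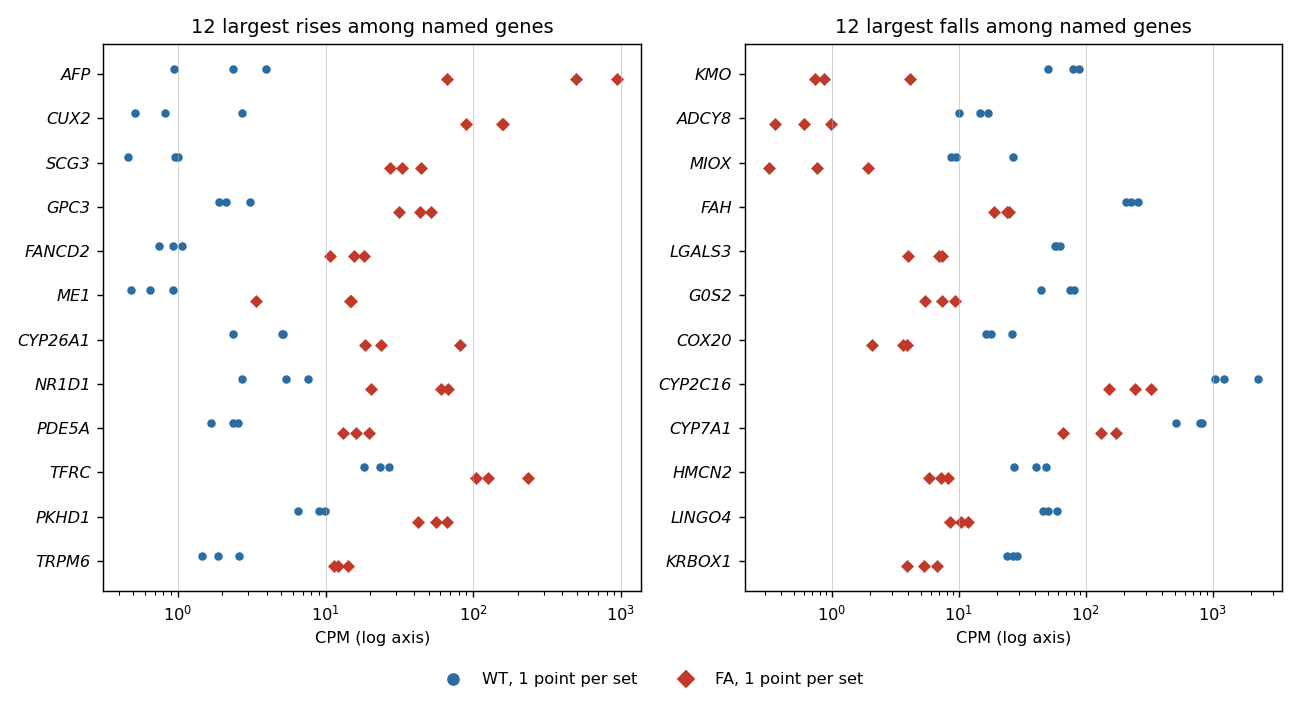
CPM on a log axis of the 12 genes with the largest rises and the 12 with the largest falls among the called genes reported here with a symbol and at least 10 CPM as the mean of the higher group, with 1 point per set, WT as blue circles and FA as red diamonds. WT and FA sets do not overlap for any of the 24 genes, and AFP has the widest range among the FA sets, from 66.3 to 934 CPM.

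Under the same limits, the largest log2 fall was in the kynurenine pathway, the main route of tryptophan breakdown in liver. KMO, kynurenine 3-monooxygenase, went from 50.4, 87.9 and 79.8 CPM in WT to 0.863, 4.09 and 0.74 CPM in FA (log2 -5.26, SE 0.71, adjusted p = 0.0137). ACMSD, which draws the pathway away from NAD synthesis, rose from 62.5, 36.2 and 35.2 CPM to 148, 130 and 151 CPM (log2 1.68, adjusted p = 0.0236). Both genes separated the groups in every set, in opposite directions. These were the 2 calls among 12 tested members of the pathway list. KYNU and AFMID lay below WT in every FA set, with differences of -0.95 and -1.06, and TDO2, the entry enzyme, differed by 0.41, none of them called. KMO lost its call without FA set 1 or FA set 3 (adjusted p up to 0.0617) and ACMSD in 4 leave-outs (up to 0.0923).

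Single genes that handle stored fat also fell. GPAM, which starts triglyceride synthesis, fell from 756, 512 and 699 CPM to 168, 200 and 287 CPM (log2 -1.59, adjusted p = 0.0348). G0S2, an inhibitor of the lipase that breaks down stored fat, fell from 75.5, 81.2 and 44.3 CPM to 7.36, 5.4 and 9.26 CPM (log2 -3.19, adjusted p = 0.004). Of 17 tested gluconeogenesis and glycogen genes, edgeR called 0, with 2 higher and 2 lower at an unadjusted p under 0.05 and 1 lower by DESeq2, and the median was 0.02. PPP1R3C, a subunit that brings a phosphatase to glycogen, was at 165, 260.4 and 165 CPM in WT and 113, 58.4 and 98.3 CPM in FA without a call (adjusted p = 0.109). PCK1, which starts gluconeogenesis, ran from 22.2 to 596 CPM within WT and from 10.4 to 51.5 CPM in FA, so that the sets overlapped. Fatty acid and triglyceride synthesis (16 tested, median -0.25) and lipid storage (12 tested, median -0.21) each held 1 call by edgeR, GPAM and G0S2. At an unadjusted p under 0.05, the first list had 1 higher and 5 lower and the second 3 higher and 5 lower. Of all genes, 9.56% were higher and 9.42% lower at that mark. DESeq2 called 1 higher and 3 lower in the first list, and 1 higher and 1 lower in the second. G0S2 was called in all 6 leave-outs and GPAM in 0 (adjusted p up to 0.122 without WT set 1).

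Cholesterol synthesis genes had mostly negative differences without a call. Of 19 tested, edgeR's quasi-likelihood test called 0, 10 were lower at an unadjusted p under 0.05 and 0 higher, and DESeq2 called 9 lower. The median was -0.73, and for 10 of 19 all FA sets lay below all WT sets, against 12.6% of all genes tested. HMGCS1, which makes the precursor of mevalonate, was at 2716, 914 and 1603 CPM in WT and at 126, 474 and 417 CPM in FA (adjusted p = 0.0869). WT set 2 was the lowest WT set, and the sets did not overlap. INSIG1, which answers to the sterol signal, had overlapping sets and a difference of 0.31. CYP7A1, which sets the pace of bile acid synthesis from cholesterol, did fall, from 793, 822 and 513 CPM to 132, 66.7 and 174 CPM (log2 -2.51, SE 0.38, adjusted p = 0.0234). It was the only call among 13 tested bile acid synthesis genes (median -0.14), and 0 of 18 bile acid transport and feedback genes were called by edgeR, with 2 higher and 2 lower at an unadjusted p under 0.05, and 1 higher and 2 lower by DESeq2. CYP7A1 was called in 2 leave-outs of 6 (adjusted p up to 0.0923).

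Among amino acid enzymes, 3 single steps fell while most of each pathway was not called. GNMT, the most abundant methyltransferase of liver, fell from 1880, 2015 and 2092 CPM to 726, 730 and 1032 CPM (log2 -1.27, adjusted p = 0.0441). SDS, serine dehydratase, fell from 137, 115 and 128 CPM to 23.3, 12 and 42.9 CPM (log2 -2.28, adjusted p = 0.0449). PRODH2, hydroxyproline dehydrogenase, fell from 49.1, 50.1 and 55.6 CPM to 14.9, 11.9 and 9.36 CPM (log2 -2.10, adjusted p = 0.00411). The WT sets of PRODH2 and GNMT were close together and the groups were separated in every set. SDS and PRODH2 were the 2 calls among 24 tested genes of branched-chain and other amino acid breakdown, and GNMT the only call among 14 of methionine and sulfur amino acids. CDO1, which makes cysteine sulfinate, was at -1.25 with an adjusted p of 0.057. Other members lay higher without a call in edgeR. In the first of these lists the median was 0.22. Its members lay above WT in every FA set for 7 genes and below for 4, where 12.6% of all genes lay on each side. At an unadjusted p under 0.05, 4 were higher and 3 lower, and DESeq2 called 2 higher and 2 lower. In the methionine list the median was -0.10, 3 were higher and 3 lower at an unadjusted p under 0.05, and DESeq2 called 2 higher and 3 lower. UROC1, urocanase of histidine breakdown, was at 130, 91.9 and 56.3 CPM in WT and 216, 254 and 316 CPM in FA (adjusted p = 0.0644). MTR, methionine synthase, differed by 1.44 (adjusted p = 0.0919) and CTH, which makes cysteine, by 1.11 (adjusted p = 0.126), both above WT in every FA set. The 12 urea cycle genes had 0 calls by edgeR, with 1 lower at an unadjusted p under 0.05 and 1 lower by DESeq2. That gene, GLUL, glutamine synthetase, was at 347, 239 and 270 CPM in WT and 143, 185 and 105 CPM in FA. PRODH2 was called in all 6 leave-outs, SDS in 2 (adjusted p up to 0.136) and GNMT in 0 (up to 0.131).

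Detoxifying enzymes moved both ways. UGT1-6, a UDP-glucuronosyltransferase, rose from 128, 126 and 168 CPM to 755, 542 and 894 CPM (log2 2.37, SE 0.26, adjusted p = 0.00685), the largest rise in CPM among the genes named. CYP4B1 rose from 101, 116 and 92.5 CPM to 235, 315 and 347 CPM. CYP2C16 fell from 1227, 2270 and 1035 CPM to 151, 243 and 327 CPM (log2 -2.65, adjusted p = 0.0236). The groups did not overlap for any of the 3 genes. In the drug metabolism list, 38 genes were tested, 1 rose (CYP4B1), 1 fell (CYP2C16) and the median was 0.09. CYP3A6 was at 4914, 3119 and 14037 CPM in WT and 1199, 1066 and 2548 CPM in FA without a call (adjusted p = 0.118). ALDH1A1, which makes retinoic acid, was at 1253, 1502 and 686 CPM and at 4619, 2576 and 4960 CPM (adjusted p = 0.0625). Estimated counts divide reads among similar genes, so that members of the cytochrome P450 and UGT families are uncertain. UGT1-6 was called in all 6 leave-outs, CYP4B1 in 3 (adjusted p up to 0.0828) and CYP2C16 in 2 (up to 0.0808).

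Genes of the NRF2 response, which protects cells from reactive compounds, included 2 rises and 1 fall among 26 tested. NQO1, a quinone reductase and a standard NRF2 target, rose from 25.9, 40.6 and 25.2 CPM to 103, 122 and 93.2 CPM (log2 1.80, SE 0.24, adjusted p = 0.0126). ME1, malic enzyme, rose from 0.644, 0.479 and 0.933 CPM to 14.8, 3.37 and 14.5 CPM (log2 3.99, adjusted p = 0.0199). CBR1, a carbonyl reductase, fell from 410, 463 and 414 CPM to 194, 199 and 228 CPM (log2 -1.05, adjusted p = 0.0350). The sets of the groups did not overlap for any of the 3. The list's median was 0.47. Of the 26, 8 lay above WT in every FA set and 1 below, where 12.6% of all genes lay on each side. At an unadjusted p under 0.05, 9 were higher and 1 lower, and DESeq2 called 7 higher and 1 lower. AKR1B10 was at 27.8, 34.1 and 72.7 CPM in WT and 236, 113 and 227 CPM in FA (adjusted p = 0.0606). NQO1 was called in 3 leave-outs of 6 (adjusted p up to 0.0621), ME1 in 2 (up to 0.0828) and CBR1 in 0 (up to 0.122).

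Targets of p53, the transcription factor that answers DNA damage, included 3 rises. Of 27 tested, edgeR called 3 higher and 0 lower, DESeq2 called 7 higher and 0 lower, 13 were higher at an unadjusted p under 0.05 and 0 lower, and 16 lay above WT in every FA set, where 12.6% of all genes did. The median was 0.52. CDKN1A, the inhibitor p21 that stops the cell cycle, rose from 10.6, 12.7 and 14.7 CPM to 47.7, 25.9 and 32.8 CPM (log2 1.49, SE 0.25, adjusted p = 0.0336). TIGAR, a regulator of sugar breakdown, rose from 0.506, 1.07 and 0.529 CPM to 3.18, 5.82 and 5.95 CPM, and POLK, a polymerase that copies past damaged bases, from 6.42, 8.77 and 9.2 CPM to 17.5, 16.6 and 21.2 CPM. All 3 were separated from WT in every FA set. BAX, which promotes cell death, differed by -0.05, SESN2 by -0.03 and MDM2, the main inhibitor of p53, by 0.52, none called. TIGAR was called in 3 leave-outs of 6 (adjusted p up to 0.0795), and CDKN1A and POLK in 1 (up to 0.122 and 0.110).

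Among the other stress lists, calls were few. NUPR1, a stress-induced nuclear protein, rose from 16.8, 9.18 and 16.2 CPM to 82.3, 99.8 and 44.8 CPM (log2 2.43, adjusted p = 0.0189). PSPH, the last enzyme of serine synthesis, rose from 7.91, 4.39 and 6.98 CPM to 17.4, 35.6 and 61.2 CPM (log2 2.57, adjusted p = 0.0377). These were the 2 calls among 21 tested genes of the integrated stress response and serine synthesis. ATF4 (-0.27), DDIT3 (-0.04) and TRIB3 (0.13), the best-known regulators and targets of that response, were not called, and the median was -0.01. For endoplasmic reticulum stress, edgeR called 0 of 20, with 1 higher and 6 lower at an unadjusted p under 0.05, and DESeq2 called 1 higher and 4 lower. The chaperone HSPA5 was at 539, 708 and 650 CPM in WT and 210, 377 and 389 CPM in FA, and XBP1, a transcription factor of the response, at 331, 125 and 288 CPM and 470, 826 and 428 CPM. NUPR1 was called in 3 leave-outs of 6 (adjusted p up to 0.0697) and PSPH in 1 (up to 0.111).

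DNA replication genes included 2 rises, and mitosis genes no call. Of 27 replication genes tested, edgeR called 2 higher and 0 lower and DESeq2 6 and 0. At an unadjusted p under 0.05, 9 were higher and 0 lower. Of the 27, 10 lay above WT in every FA set, where 12.6% of all genes did, and the median was 0.57. TYMS, which makes thymidylate, rose from 2.24, 1.31 and 1.82 CPM to 5.93, 4.81 and 5.31 CPM (log2 1.58, adjusted p = 0.0311), and CCNE1, cyclin E1, from 0.322, 0.464 and 0.466 CPM to 1.29, 2.47 and 1.45 CPM (log2 2.05, adjusted p = 0.0441). The helicase subunits MCM2 to MCM7 had positive differences, from 0.39 (MCM2) to 1.05 (MCM4), without a call. Of 30 mitosis genes, edgeR called 0, with 2 higher and 3 lower at an unadjusted p under 0.05 and 1 lower by DESeq2, and the median was 0.20. MKI67, the standard marker of dividing cells, was at 4.18, 4.73 and 5.88 CPM in WT and 3.11, 2.43 and 3.83 CPM in FA. In the folate cycle, which feeds thymidylate synthesis, FPGS, the enzyme that retains folate in cells, rose from 12.6, 10.5 and 10.3 CPM to 54.5, 102 and 42.8 CPM (log2 2.57, adjusted p = 0.0119). FPGS and TYMS were the 2 calls by edgeR among 18, and DESeq2 called 5 higher and 2 lower. At an unadjusted p under 0.05, 5 of the 18 were higher and 4 lower, and the median was -0.17. FPGS was called in all 6 leave-outs, TYMS in 1 (adjusted p up to 0.101) and CCNE1 in 0 (up to 0.153).

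**Figure D3:**
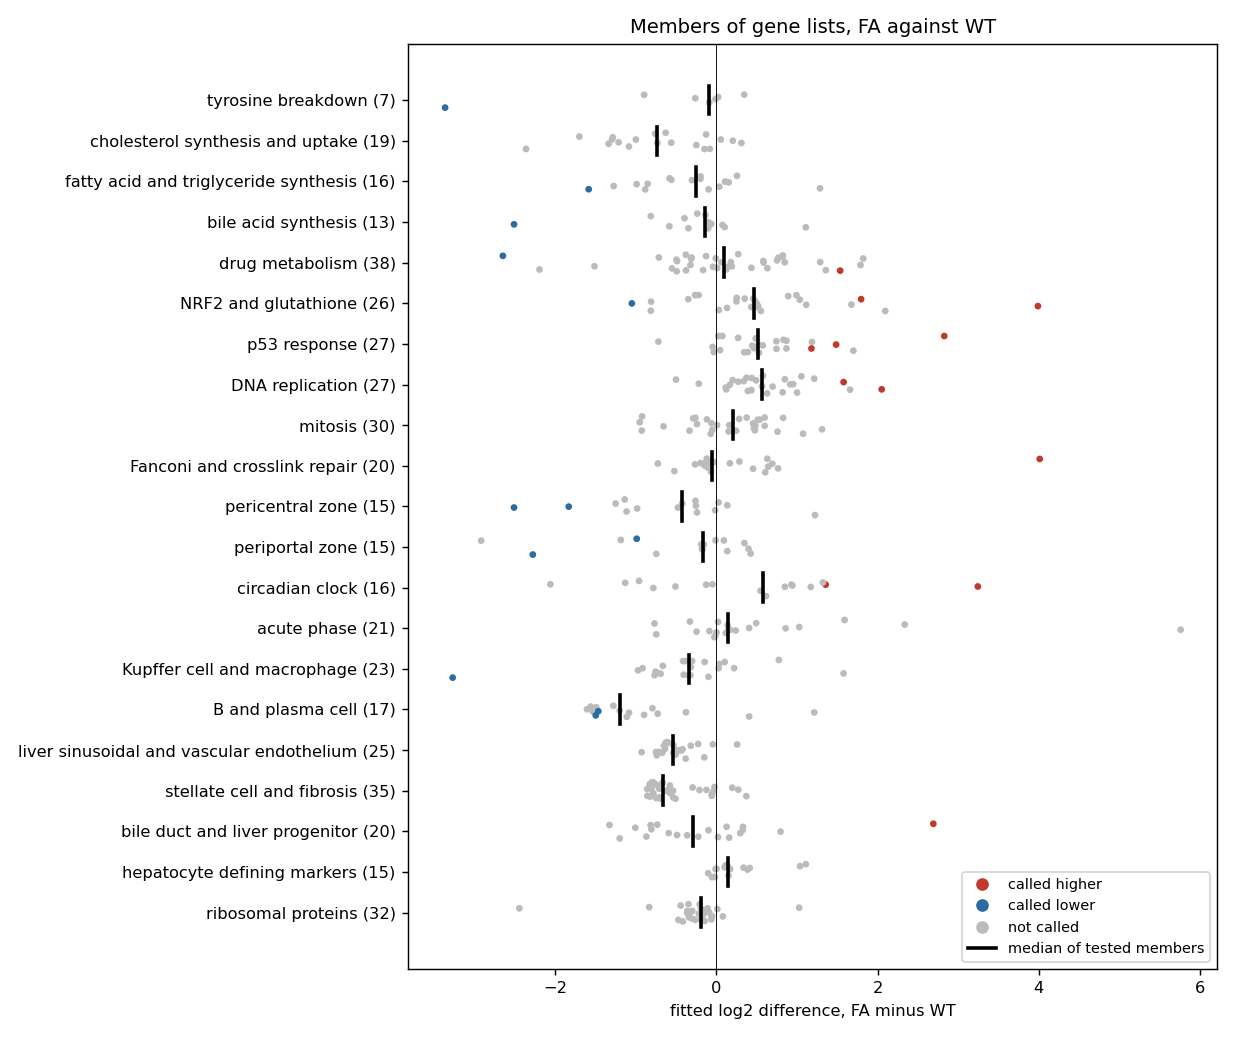
Fitted log2 difference (x axis, FA minus WT) of each tested member of 21 gene lists, with the number tested in parentheses, called members in red or blue, others in grey and the list's median as a black bar. The p53 and DNA replication lists have medians of 0.52 and 0.57, and the cholesterol, stellate cell and B cell lists lie to the left with medians of -0.73, -0.67 and -1.20.

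A few genes that mark the zones of the liver lobule fell. Around the central vein, where WNT signals act, LGR5, a receptor of the WNT-enhancing R-spondins, fell from 25.5, 16.9 and 24.6 CPM to 8.15, 5.45 and 5.18 CPM (log2 -1.83, SE 0.25, adjusted p = 0.0137). CYP7A1 fell as given above. These were the 2 calls among 15 tested pericentral genes (median -0.43), and DESeq2 called 5 lower and 1 higher. Of the 15, 6 lay below WT in every FA set and 1 above, where 12.6% of all genes lay on each side. The 1 above was TBX3, a transcription factor, at 2404, 2857 and 3545 CPM in WT and 10339, 4183 and 6031 CPM in FA without a call in edgeR (adjusted p = 0.139). It takes most of the list's summed level, which was 4260 to 5065 CPM in WT and 4759 to 11045 CPM in FA. Around the portal vein, SDS and CDH1, E-cadherin, fell, the latter from 60.5, 47.2 and 67.1 CPM to 31.3, 27.4 and 29.3 CPM (log2 -0.99, adjusted p = 0.0407). They were the 2 calls among 15 periportal genes (median -0.17). AXIN2, the common WNT target, differed by -0.24 and was not called. Of 24 transcription factors and nuclear receptors of hepatocytes, edgeR called 0, with 1 higher and 5 lower at an unadjusted p under 0.05 and 1 lower by DESeq2, and HNF4A differed by -0.09. Of the 15 defining hepatocyte markers, edgeR called 0, with 2 higher at an unadjusted p under 0.05 and 2 called higher by DESeq2. LGR5 lost its call without WT set 1 or FA set 3 (adjusted p up to 0.0692), CYP7A1 was called in 2 leave-outs (up to 0.0923), SDS in 2 (up to 0.136) and CDH1 in 1 (up to 0.128).

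Both REV-ERB genes, repressors in the circadian clock, rose. The circadian clock is a feedback loop in which CLOCK and ARNTL drive the PER, CRY and NR1D genes, whose products repress the loop. NR1D1, REV-ERB alpha, rose from 7.6, 5.4 and 2.71 CPM to 67.6, 60.9 and 20.3 CPM (log2 3.24, SE 0.53, adjusted p = 0.0314), and NR1D2, REV-ERB beta, from 47.3, 47.9 and 37.7 CPM to 128, 98.4 and 113 CPM (log2 1.36, adjusted p = 0.0146). The groups were separated in every set for both, the only calls by edgeR among 16 tested clock genes (median 0.58), where DESeq2 called 4 higher and 2 lower. Without a call, TEF, HLF and CIART lay above WT in every FA set, by 0.93, 0.94 and 1.32, and CRY1 and PER2 below, by 2.06 and 0.96 on the log2 scale. ARNTL (-1.13), CLOCK (-0.05) and PER1 (-0.13) had overlapping sets. Levels of these genes follow the hour of the day, and since the labels give no hour of collection, a difference in hour between the groups cannot be told apart from one due to the group. NR1D1 and NR1D2 were each called in 2 leave-outs of 6 (adjusted p up to 0.0997 and 0.0635).

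**Figure D4:**
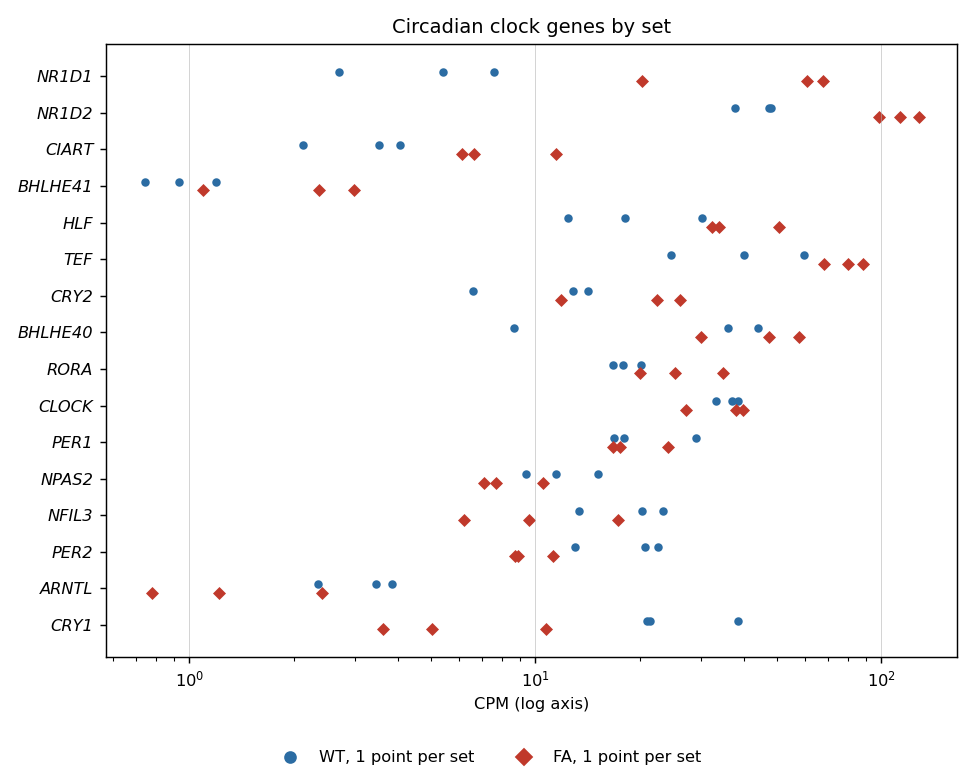
CPM on a log axis of the 16 tested circadian clock genes, ordered by log2 difference from the highest at the top, with 1 point per set, WT as blue circles and FA as red diamonds. NR1D1 and NR1D2 at the top are the called genes, and CLOCK and PER1 have overlapping sets.

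Most lists of markers of other liver cell types had negative medians. In bulk tissue, fewer cells of a type and less RNA per cell cannot be told apart. For stellate cells and fibrosis, edgeR called 0 of 35, with 19 lower at an unadjusted p under 0.05 and 0 higher, and DESeq2 called 9 lower. Of the 35, 17 lay below WT in every FA set and 0 above, where 12.6% of all genes lay on each side. The median was -0.67. COL1A1, the main collagen of scar tissue, was at 34.4, 39.3 and 40 CPM in WT and 24.9, 27.2 and 12 CPM in FA, and LRAT, which stores vitamin A in quiescent stellate cells, at 26.1, 28.4 and 24.3 CPM and 18.5, 14.7 and 13.6 CPM. ACTA2, the marker of activated stellate cells, had overlapping sets (3.65 to 4.66 CPM and 4.30 to 6.16 CPM). The list's summed level did not separate the groups (2684 to 3567 CPM in WT, 2060 to 3368 CPM in FA), since FN1, which hepatocytes also make, takes most of it. For endothelium, edgeR called 0 of 25, with 9 lower at an unadjusted p under 0.05, and DESeq2 called 2 lower. The median was -0.53, and the summed level was 525 to 643 CPM in WT and 310.2 to 460.5 CPM in FA.

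For Kupffer cells and macrophages, edgeR called 1 of 23 lower, and DESeq2 called 7 lower and 0 higher. At an unadjusted p under 0.05, 7 were lower and 1 higher. Of the 23, 8 lay below WT in every FA set and 0 above, where 12.6% of all genes lay on each side. The median was -0.35, and the summed level was 898 to 1154 CPM in WT and 598 to 727 CPM in FA. The edgeR call was LGALS3, galectin 3, which fell from 57.7, 57.3 and 62.5 CPM to 7.3, 4.01 and 7.01 CPM (log2 -3.28, SE 0.25, adjusted p = 0.00296). Its fall was larger than that of any other marker on the list, the next being C1QC at -0.97 and CSF1R at -0.92. Of 17 tested B and plasma cell markers, DESeq2 called 5 lower and 1 higher, and 7 were lower and 2 higher at an unadjusted p under 0.05. In every FA set, 9 of the 17 lay below WT and 2 above, where 12.6% of all genes lay on each side. By edgeR, 2 fell. JCHAIN, which joins secreted antibodies, went from 77.3, 75 and 88.7 CPM to 32.2, 24.5 and 28.6 CPM (log2 -1.50, SE 0.17, adjusted p = 0.00877), and IRF4, a plasma cell factor, from 3.14, 2.37 and 2.27 CPM to 0.943, 1.05 and 0.82 CPM. The B cell list had the lowest median of the 56 lists with tested members, -1.20, and its members were mostly at low levels. Its 2 members above WT in every FA set were BLNK and XBP1, of which XBP1 is also expressed by hepatocytes. Of 21 T and NK cell markers edgeR called 0, with 2 lower at an unadjusted p under 0.05 and 1 lower by DESeq2. CD1D, which presents lipid antigens, fell from 53.1, 50.5 and 50.9 CPM to 19.4, 25.8 and 15.3 CPM, the only call among 13 antigen presentation genes. LGALS3 and JCHAIN were called in all 6 leave-outs, CD1D in 1 (adjusted p up to 0.0951) and IRF4 in 0 (up to 0.163).

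Bile duct and progenitor markers split. PKHD1 rose, as given above, while KRT19, the standard bile duct keratin, was at 7.05, 8.09 and 6.22 CPM in WT and 5.66, 3.39 and 3.06 CPM in FA. SOX9 and KRT7 lay below WT in every FA set as well, by 1.01 and 1.20 on the log2 scale. PKHD1 was the only call by edgeR among 20 tested, and DESeq2 called 2 higher and 2 lower. Of the 20, 6 lay below WT in every FA set and 2 above, where 12.6% of all genes lay on each side. The erythroid list held 1 call among 12, TFRC, which all growing cells use. The beta globin gene HBB2 was at 582, 778 and 2260 CPM in WT and 605, 639 and 255 CPM in FA, with overlapping sets. Among 11 genes often used as references, edgeR called 0, with 1 higher and 1 lower at an unadjusted p under 0.05 and the same counts called by DESeq2. ACTB, beta actin, was at 1505, 1868 and 879 CPM in WT and 673, 613 and 457 CPM in FA, while GAPDH differed by 0.21 and TBP by 0.05.

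The FA sets differed from each other in acute phase genes, which hepatocytes switch on in inflammation. SAA3, serum amyloid A3, was at 2.33, 1300 and 1.70 CPM in FA sets 1, 2 and 3 and at 5.15 to 11.6 CPM in WT. ORM1, orosomucoid, was at 11.9, 898 and 38 CPM in FA and at 22.5, 4.51 and 161 CPM in WT. CRP, C-reactive protein, was at 766, 9179 and 2043 CPM in FA. Per M library counts, unscaled, CRP was at 2910 to 3093, 2654 to 2874 and 6218 to 6480 CPM in WT sets 1, 2 and 3. The WT sets thus differed from each other in ORM1 and CRP as well, with WT set 3 above FA sets 1 and 3. FA set 2 was the highest of all 6 sets for SAA3, ORM1 and CRP, and its 4 libraries agreed (1102 to 1556 CPM for SAA3, per M library counts, unscaled). FA set 1 was the lowest set for CRP. The 21 tested acute phase genes had a median difference from the WT mean of -0.60 in FA set 1, 0.78 in FA set 2 and -0.17 in FA set 3, on the scale of log2 of CPM plus 0.1. Called over the group, 0 of the 21 passed in edgeR, with 3 higher at an unadjusted p under 0.05 and 1 called higher by DESeq2. The iron hormone HAMP, often raised with the acute phase, was at 92.9 CPM in FA set 2 and 174 and 175 CPM in the other FA sets. Set 2 was also the FA set with the least AFP (66.3 CPM) and ME1 (3.37 CPM). The part of the acute phase genes of FA set 2 in the other differences was not tested. Without FA set 2, 216 genes were called higher and 125 lower.

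Some genes were near absent in some sets and abundant in others. WARS1, the tryptophan tRNA ligase, was at 24.8, 26.6 and 27.9 CPM in WT and 35 CPM in FA set 1, but at 0.0937 and 0.113 CPM in FA sets 2 and 3, where no library passed 0.362 CPM. RPL27, a protein of the large ribosomal subunit, was at 56.4, 68.1 and 179 CPM in WT and 2.97, 50.9 and 1.78 CPM in FA. Both genes serve protein synthesis in every cell, and each was near 0 in 2 FA sets, though not in the same 2. NAT1 was near 0 in sets of both groups, at 2.73, 126 and 57 CPM in WT and 2.17, 1.45 and 140 CPM in FA. PGER6 ran from 10.5 to 483 CPM in WT and from 18.6 to 270 CPM in FA, and IFGGA1 from 0.417 to 21.6 CPM and from 1.82 to 26.5 CPM. MTHFD1L ran from 1.05 to 24.8 CPM and CASP4 from 1.94 to 36 CPM among the FA sets. None of these was called. Each of 11954 genes was credited, within each group, only to the set farthest from the group's median. Genes at least 4-fold from it, on CPM plus 0.1, numbered 104 for FA set 2, 47 for FA set 1 and 53 for FA set 3. For the WT sets they numbered 34 to 93. With 3 sets the median is itself a set, so that WARS1 counted for FA set 1.

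**Figure D5:**
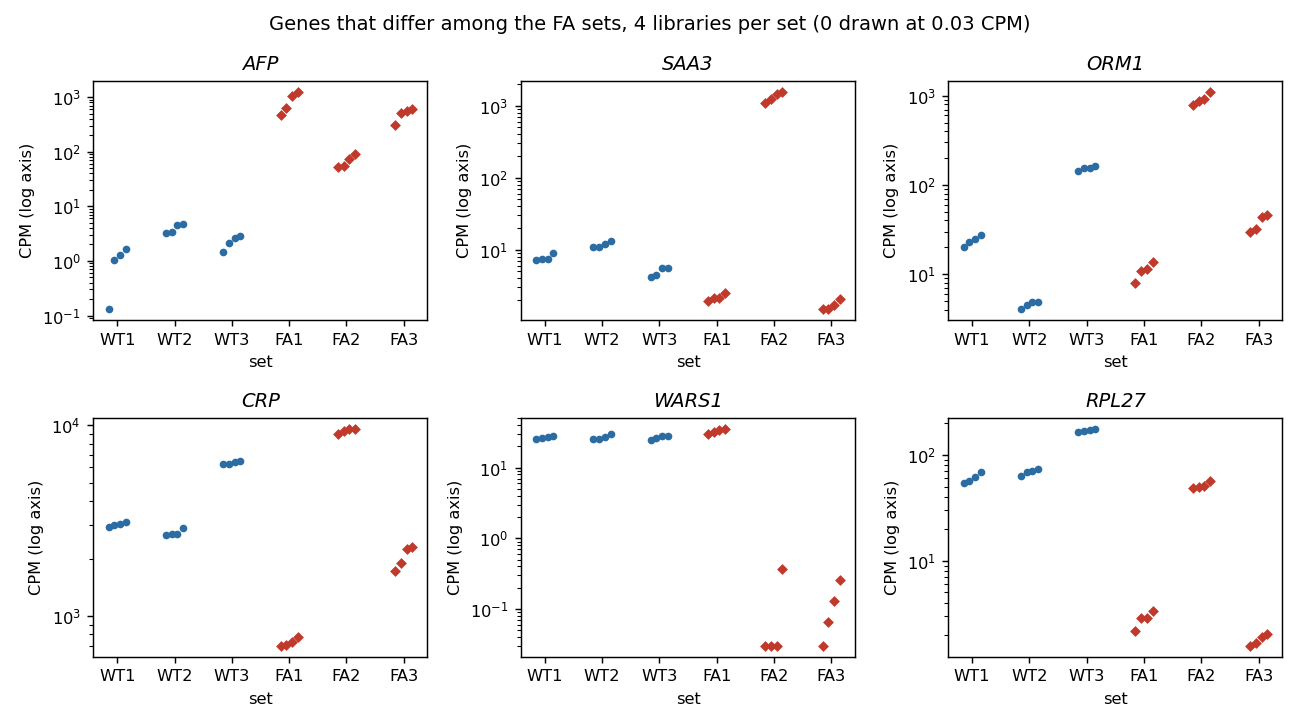
CPM per library without scaling, on a log axis, of 6 genes that differed among the FA sets, with the 4 libraries of each set side by side in order of level, WT as blue circles and FA as red diamonds, and 0 drawn at 0.03 CPM. The libraries of a set lie close together, while SAA3, ORM1 and CRP are highest in FA set 2 and WARS1 and RPL27 lie far below WT in 2 of the 3 FA sets.

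A few called genes were silent in 1 group. LOC103345889, which has no other symbol, held 1437 counts over the WT sets and 0 over the FA sets, which makes it at least 509-fold lower in FA when 3 counts are taken as the floor for a whole group. In the other direction, LOC103352172 was at least 141-fold and LOC100353012 at least 117-fold higher in FA. FZD9, a WNT receptor, held 904 counts in FA and 1 in WT, a ratio of 851 with a 95% counting interval of 152 to 33637. The interval covers counting error only. The 3 LOC genes were called in all 6 leave-outs, and FZD9 in 1 (adjusted p up to 0.127), losing its call without FA set 1 or 3 or any WT set. In all, 7 called genes had 0 counts in 1 group and 7 others 1 to 3 counts. These genes were chosen after their values were seen.

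Of the 12777 tested genes placed in the RefSeq order, 203 were called. Among the genes reported here, neighbours in that order were called together in 7 pairs, 6 of them in the same direction. Neighbours were taken among tested genes, so that untested genes may lie between them. Whether 7 pairs are more than the share of called genes gives was not tested. ACMSD and TMEM163 rose by 1.68 and 2.95 on the log2 scale, TRPM6 and C1H9orf40 by 2.68 and 1.49, and CCDC28A and NHSL1 by 1.67 and 0.97. KMO and LOC108178181 fell together, FBXO25 and LOC100345822 rose together, and LOC100350311 and LOC103346593 fell together. RBM46 fell while FHDC1 rose. TMEM163 and FHDC1 were called in 0 of the 6 leave-outs (adjusted p up to 0.151 and 0.150), C1H9orf40, NHSL1, LOC108178181 and LOC103346593 in 1 (up to 0.0753, 0.106, 0.0914 and 0.128), and ACMSD, CCDC28A and FBXO25 in 2 (up to 0.0923, 0.0997 and 0.138). KMO was called in 4, and TRPM6, RBM46, LOC100345822 and LOC100350311 in all 6. Whether the genes of a pair overlap was not tested. The labels do not say whether strand was kept, so that reads of any pair that overlaps cannot be told apart.

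The remaining large falls had no list of their own. LGALS3 and FAH aside, ADCY8, an adenylyl cyclase, fell from 17, 10 and 14.8 CPM to 0.606, 0.359 and 0.981 CPM (log2 -4.43, adjusted p = 0.00338). COX20, an assembly factor of cytochrome oxidase, fell from 26.4, 18 and 16.3 CPM to 3.91, 2.06 and 3.62 CPM, and HMCN2, a matrix protein, from 40.5, 27.2 and 48.6 CPM to 7.2, 8.18 and 5.85 CPM. MIOX, which breaks down inositol, fell from 8.66, 26.7 and 9.42 CPM to 0.768, 1.92 and 0.322 CPM. LINGO4 fell from 50, 46.1 and 59.4 CPM to 11.9, 8.57 and 10.3 CPM (log2 -2.34, adjusted p = 0.00326), and KRBOX1 from 26.6, 28.9 and 23.9 CPM to 5.27, 3.87 and 6.67 CPM (log2 -2.33, adjusted p = 0.00414). CYP2U1, a cytochrome P450, fell from 89.5, 99.1 and 101 CPM to 14.2, 31.7 and 16.7 CPM (log2 -2.21, adjusted p = 0.0161). For all 7 the FA sets lay below the WT sets. ADCY8, COX20, HMCN2, LINGO4 and KRBOX1 were called in all 6 leave-outs, CYP2U1 in 3 (adjusted p up to 0.0860) and MIOX in 1 (up to 0.136). The other rise in CPM not yet described was UGT2A1, from 69.9, 92 and 54.6 CPM to 286, 168 and 278 CPM (adjusted p = 0.031), called in 2 leave-outs (up to 0.120). FOSB, an early response gene, rose from 0.475, 0.557 and 0.575 CPM to 1.5, 2.06 and 2.4 CPM, the only call among 17 immediate early genes, and was called in 1 leave-out (up to 0.122).

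Other lists held 0 called genes in edgeR's quasi-likelihood test, and the counts that follow are at an unadjusted p under 0.05. Of all genes tested, 9.56% were higher and 9.42% lower at that mark. DESeq2 called 571 genes higher and 562 lower over all genes. Fatty acid oxidation and ketone bodies had 1 of 24 higher and 0 called by DESeq2, and the nuclear-encoded respiratory chain had 2 of 28 higher and 0 called by DESeq2. Apolipoproteins had 1 of 23 higher and 9 lower, with 1 called higher and 5 lower by DESeq2. APOA4 was at 2006, 1999 and 1931 CPM in WT and 1104, 725 and 776 CPM in FA (adjusted p = 0.0554). Complement and coagulation had 0 of 31 in either direction and 0 by DESeq2, with a median of -0.08. Interferon response genes had 2 of 26 higher and 2 lower, with 1 higher and 2 lower by DESeq2, and apoptosis genes 1 of 20 higher and 2 lower, with 2 lower by DESeq2. GHR, the growth hormone receptor, was at 1107, 1823 and 1231 CPM in WT and 640, 364 and 590 CPM in FA without a call (adjusted p = 0.0699). Ribosomal protein genes had 0 of 32 higher and 1 lower, and 0 by DESeq2, and proteasome genes 0 of 25 by either measure. Glycolysis had 3 of 23 higher and 2 lower, with 2 called higher by DESeq2, heme synthesis and breakdown 3 of 16 higher and 1 lower, with 1 higher by DESeq2, and heat shock 2 of 11 lower, with 1 lower by DESeq2. Inflammatory signals had 1 of 16 higher and 1 lower, and neutrophil markers 0 of 10, with 0 called by DESeq2 in both.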

How the data were processed

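RNA-seq libraries from rabbit liver were read from 1 deposited table of estimated counts, which are whole numbers per gene. Salmon 0.14.1 is listed in the submitters' processing notes. What it was used for, the genome build and the strand setting were not given in the sources used here. Libraries were summed to 6 sets of 4 by title. Genes passing filterByExpr (14379 of 23394) were fitted in edgeR 4.0.16 (R 4.3.3) on these 6 sets alone, with TMM factors and quasi-likelihood tests. Of 8019 LOC identifiers, 701 took a RefSeq symbol (mOryCun1.1), used for names and neighbours only. The procedure was tested on simulated data. Gene members and 57 lists were chosen with earlier results of these data known. The mitochondrially encoded list had 0 tested genes. Some genes are not reported here. They stayed in the fit and in counts over all genes, and lists and rankings leave them out. Named by rule were FAH and the tyrosine genes, the 12 largest rises and falls by log2 and 8 by CPM (called, mean of at least 10 CPM, no overlap), up to 3 called members of each list or its smallest p, and the 10 widest spreads among FA sets. Other genes were chosen after their values were seen. Plots used matplotlib 3.10.9 under Python 3.11.15. Alternatives were DESeq2 1.42.0, RLE factors, other filters, other fits and each set left out.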

Additional observations from a re-analysis of the deposited data

How the results depend on the processing

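The 235 called genes kept their direction in every alternative that tested them, 48 were called in all 6 fits that leave out 1 set, and 17 in every alternative. FAH was called in every alternative, with log2 differences of -3.44 to -3.26 when 1 set was left out. The number of genes called against WT ran from 76 to 341 with 1 set left out. It was 1133 with DESeq2, 25 with all 9 sets fitted together, 5620 with the 24 libraries as separate replicates, 1490 with limma-voom on these libraries and sets as random blocks (consensus correlation 0.696) and 146 with library 1 of each set alone. It was 238 with RLE size factors, 275 without a filter on low counts and 243 with at least 1 CPM in 3 sets. With the set number as a replicate block it was 134, of which 119 were among the 235. Deviations from the group means correlated at -0.083, -0.105 and -0.029 for same-numbered sets and at -0.079 to 0.138 for differently numbered sets. With 3 sets per group these values cannot decide whether the numbers pair the sets. The cause of these moves was not tested. With 4 residual degrees of freedom and a biological coefficient of variation of 31.6%, small differences are out of reach, and a gene without a call was not shown to be equal. Every value rests on 3 sets per group, and a fit without 1 set leaves 2 in its group.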
